A study of Mus musculus with 27 samples.

Results

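Alternative splicing of the developing mouse brain was followed through 4640 exon-exon junctions that compete for a splice site. The members were chosen by their measured read counts as well as their coordinates. A junction entered this set when its intron was longer than 100 and shorter than 50000 bases, when it shared its start or its end with another such junction, and when both had 10 or more spliced reads in at least 14 of the 27 libraries. These members were 14.3% of the 32427 junctions that met the limits of length and reads, and they formed 2889 pairs in 1648 genes. The other 27787 junctions shared neither end with a junction of that depth. The measurement was the share of the shorter junction in the reads of both junctions of a pair, in percent. For an exon that can be skipped, the shorter junction enters or leaves the exon and the longer junction jumps over it, so that this share is the inclusion of the exon. At 184 of the 2481 shared sites more than 2 members meet, and there it is only the share within the pair.

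The 3 strains were AKR/J, C57BL/6J and the congenic null B6.Cg-Cav1tm1Mls/J, called Cav1-null. RNA came from whole fetal brains taken at d12, d15 or d17 of gestation, counted from the plug as day 1, with 3 libraries in each of the 9 groups. AKR/J is an inbred short-lived strain and C57BL/6J a long-lived strain. Cav1-null shares the C57BL/6J background and lacks caveolin-1, so it differs from its control at the targeted gene and at what else was carried along with it. Where values of the 3 strains stand in a row, their order is AKR/J, C57BL/6J, Cav1-null, called strain order. All fetuses were labelled female, and no group was treated. The authors describe the 3 replicates as biological, but litters are not given in the sources used here. The p-values measure only the spread between these libraries, and the part of litter in it is not known.

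The labels were checked on the gene counts. Cav1 was at 0 to 0.551 CPM (gene counts scaled to the total of a library) in the 9 Cav1-null libraries and at 6.36 to 43.0 CPM in the other 18. Genes of the Y chromosome, summed over 4 genes, stood at 425 CPM in Cav1-null d12 replicate 2, where Xist was at 3.67 CPM, and at 34.4 CPM in AKR/J d12 replicate 1, against the label female. Xist was at 3.42 CPM in AKR/J d15 replicate 3, which had no reads of those Y genes. A list of 6 neuronal markers summed to between 1085 and 5116 CPM in every library, so that the labelled tissue was present throughout. The AKR/J d12 libraries stood apart, since 8 erythroid markers summed to 35381 to 135218 CPM there against 459 to 17377 CPM in the other groups, and their neuronal markers were at 1085 to 1376 CPM against 2370 to 3588 CPM in C57BL/6J d12. The part of this in the results on AKR/J d12 was not tested.

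An intron is removed at a donor site on its 5′ side and an acceptor site on its 3′ side, and a cell that joins a site to different partners makes different messages from a gene. Neurons are known for using many alternative exons, among them exons of at most 27 bases, called microexons, most of which change a short stretch of a protein and keep the reading frame. Proteins such as Srrm4, Rbfox, Nova and Ptbp set the inclusion of many of these exons as progenitors become neurons.

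Of the 2889 pairs, 1616 belonged to a cassette exon, which is either included or skipped. A further 429 had alternative acceptors, 427 alternative donors, 165 alternative first exons and 36 alternative last exons. In 52 pairs the longer junction skipped several exons and in 13 the choice lay between alternative exons, 122 involved a junction that is not annotated and 29 fell in none of these kinds. A shared start held 1481 pairs and a shared end 1408. A cassette exon measured on both sides gives 2 pairs that share the skipping junction and are not independent. GT-AG ends were found at 4596 members (99.1%), GC-AG at 37 and other ends at 7. Members were less used than the junctions without a partner, with a median of 30 reads against 46, and spanned longer introns, with a median of 2411 bases against 1882. In the median library, the less used junction of a pair held under 10% of the reads in 486 pairs (16.8%) and 10 to 50% in 2403. The median SD of the share between the replicates of a group was 4.74 percentage points.

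The threshold of the rule fell in a dense part of the table. The 179 members with 10 or more reads in exactly 14 libraries had a median of 10 reads, and the 185 sharing junctions with that depth in 13 libraries had a median of 9. A junction used in only 1 strain or on only 1 day, which is 9 libraries, could not become a member.

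Zeros needed care, because the deposited table leaves out junctions with multi-mapped reads or short overhangs, and a 0 can be a removed value. Of the 125280 values of the members, 6941 (5.54%) were 0, and the share of zeros was higher in members with a median of at least 20 reads (6.2%) than in less used members (4.13%). The 5293 zeros of the former were treated as missing and the rest were kept as counts. The junction ratio was tested in edgeR by quasi-likelihood, for pairs where no value was missing and the pair had at least 20 reads in every fitted library. At least 1 comparison could be made for 2652 pairs (91.8%), which hold 4306 of the 4640 members, and the other 334 members were not tested. Calls were made where the p-value, adjusted over all tested pairs by Benjamini and Hochberg, was under 0.05, and changes are given as log2 changes of the ratio of the shorter to the longer junction. In whole brains, splicing that changes within cells and a changed mix of cells cannot be told apart.

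The exons below carried some of the largest changes and are short enough to be shown whole. Each is written 5′ to 3′ on the strand of its gene, with the exon in capitals and 15 bases of each flanking intron in lower case, in GRCm39. For Fsd1l, the capitals mark the 3 bases between its pair of acceptor sites, the lower case before them is intron and the lower case after them is exon.
Ap1b1 (chr11:4983242-4983262, + strand): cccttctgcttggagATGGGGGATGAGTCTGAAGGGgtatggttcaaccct
Mars1 (chr10:127132586-127132609, - strand): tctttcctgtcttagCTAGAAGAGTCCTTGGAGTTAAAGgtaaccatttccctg
Mef2a (chr7:66894269-66894292, - strand): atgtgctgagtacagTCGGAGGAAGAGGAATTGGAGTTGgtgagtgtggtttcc
Git1 (chr11:77393655-77393681, + strand): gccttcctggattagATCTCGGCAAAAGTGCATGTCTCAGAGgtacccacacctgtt
Tenm3 (chr8:48766273-48766299, - strand): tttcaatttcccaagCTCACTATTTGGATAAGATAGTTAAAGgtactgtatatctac
Nrcam (chr12:44624928-44624963, + strand): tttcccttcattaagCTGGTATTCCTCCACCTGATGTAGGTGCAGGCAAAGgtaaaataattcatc
Tbc1d23 (chr16:57001855-57001899, - strand): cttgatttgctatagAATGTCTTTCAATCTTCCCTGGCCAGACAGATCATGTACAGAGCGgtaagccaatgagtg
Rpn2 (chr2:157165143-157165190, + strand): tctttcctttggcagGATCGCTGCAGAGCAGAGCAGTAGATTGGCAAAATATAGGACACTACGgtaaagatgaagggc
Fsd1l (chr4:53693984-53693986, + strand): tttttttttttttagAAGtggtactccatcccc
Each of the 8 exons holds a multiple of 3 bases and lies in coding sequence, and each is followed by GT and preceded by AG.

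The share of the shorter junction changed in many pairs between d12 and d17. In AKR/J, 280 of 1485 tested pairs were called (18.9%), with the shorter junction higher on d17 in 179 (12.1%) and lower in the others (6.8%). In C57BL/6J, 290 of 1898 were called (15.3%), 177 higher (9.33%) and 113 lower (5.95%). The count for Cav1-null was 304 of 1897 (16.0%), 184 higher (9.7%) and 120 lower (6.33%). The counts include pairs given below with no test, among them Git1 in AKR/J and Homer1 in C57BL/6J. Fewer pairs could be tested in AKR/J, whose d12 libraries had 274 to 461 members at 0 against 187 to 309 in the other groups. The shares of the d12 and d17 libraries did not overlap in 34.8%, 34.0% and 33.3% of the tested pairs, in strain order. The count in C57BL/6J fell to 168 without d17 replicate 3, and that in Cav1-null to 195 without d12 replicate 1 and to 200 without d17 replicate 3. Without Cav1-null d12 replicate 2, the library with Y chromosome reads, 214 pairs were called. With every 0 kept as a count, 123, 54 and 56 pairs were called in strain order.

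The neuronal markers were higher on d17 as well, going from 1085 to 1376 CPM on d12 to 3898 to 3916 CPM on d17 in AKR/J, from 2370 to 3588 CPM to 3803 to 5116 CPM in C57BL/6J and from 2856 to 3564 CPM to 4025 to 4374 CPM in Cav1-null. Markers of other cells differed between the days too. A list of 6 progenitor markers lay at 1203 to 1873 CPM on d12 and 402 to 552 CPM on d17 for AKR/J, at 1651 to 2283 and 355 to 639 CPM for C57BL/6J and at 1164 to 1497 and 355 to 362 CPM for Cav1-null. The 4 astrocyte markers lay at 22.2 to 36.2, 68.5 to 138 and 84.5 to 123 CPM on d12 and at 151 to 159.8, 217 to 346 and 190.3 to 222 CPM on d17 in strain order. The erythroid markers lay at 35381 to 135218, 1579 to 4544 and 4101 to 4873 CPM on d12 and at 3307 to 17377, 1643 to 2364 and 459 to 2026 CPM on d17, and 6 placenta and yolk sac markers at 38.4 to 1243, 84.8 to 239.9 and 169.8 to 693 CPM on d12 and at 486 to 539, 532 to 566 and 298 to 373 CPM on d17. The part of these lists in the calls was not tested. In the named pairs of Mef2a, Tbc1d23 and 4833439L19Rik in AKR/J, of Nup54 and Fsd1l in C57BL/6J and of Slc4a7 and Hnrnpa2b1 in Cav1-null, a junction was under 10 reads in every library of a compared day, as for the 33-base exon of Ptprf in the late phase, so the read rule favours such differences.

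The 3 strains share no library in these comparisons, and 1062 pairs were tested in all of them. Of these, 88 pairs in 67 genes were called in every strain, which is 43.8% of the 201 called among them for AKR/J, 60.7% of the 145 for C57BL/6J and 52.4% of the 168 for Cav1-null. All 88 moved the same way in the 3 strains, 58 toward the shorter junction, and 68 of them belonged to cassette exons. The 88 include Git1 on both flanks of an exon, although it is given below with no test in AKR/J. Among these 1062 pairs, no pair called in more than 1 strain moved in opposite directions. Over these pairs, the log2 changes had a Pearson's r of 0.75 between AKR/J and C57BL/6J, 0.72 between AKR/J and Cav1-null and 0.80 between C57BL/6J and Cav1-null, with a Spearman's rho of 0.67, 0.64 and 0.74. These are descriptions over pairs, some of which share a junction, and all of which were read against the same reference. A test of the difference between strains in the change from d12 to d17 called no pair with edgeR, neither among 1213 pairs of AKR/J against C57BL/6J (0.0%, with 92 at an unadjusted p under 0.05) nor among 1554 of Cav1-null against C57BL/6J (0.0%, with 44).

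Exons of at most 27 bases stood out by their direction. Of their tested pairs, 20 of 33 were called for AKR/J, 34 of 55 for C57BL/6J and 33 of 59 for Cav1-null, and inclusion was higher on d17 in 19, 33 and 33 of them. The AKR/J calls include Git1 on both flanks of its exon, which is given below with no test there. The median log2 change of all tested pairs of such exons was 2.19, 1.92 and 1.33, while that of all tested pairs was 0.09, 0.04 and 0.06. Cassette exons of 28 to 150 bases were called in 24.1%, 19.6% and 19.1% of their pairs, with 91, 92 and 81 higher and 59, 64 and 65 lower. Exons over 150 bases were called in 18.1%, 10.8% and 19.5%. The count for the shortest exons fell to 21 in Cav1-null without d12 replicate 1, and with every 0 kept as a count it was 6 in C57BL/6J and 10 in Cav1-null.

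**Figure D1:**
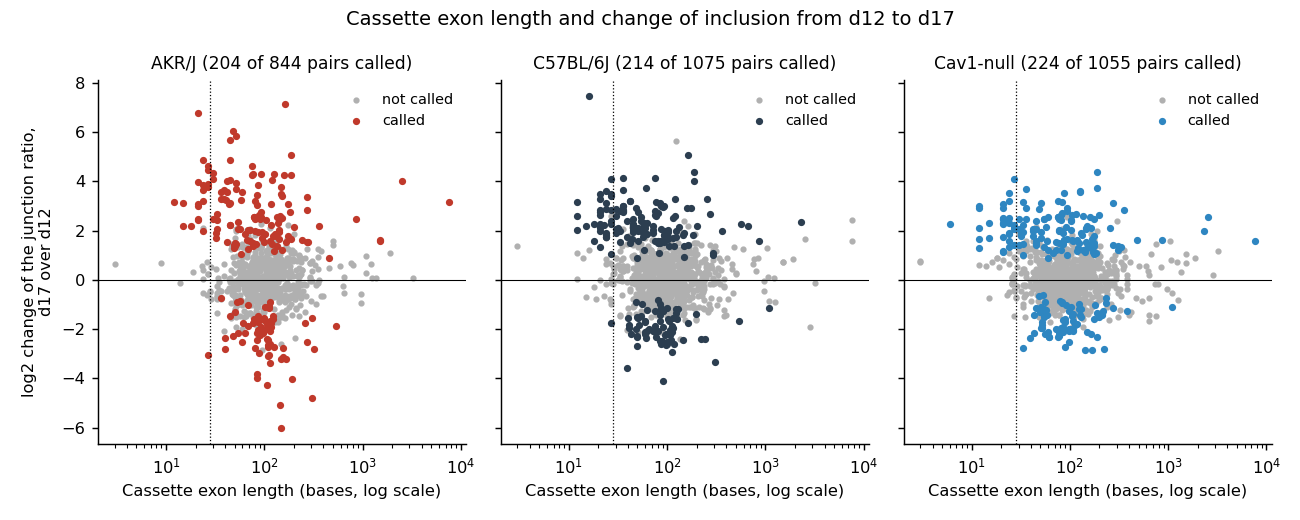
Each point is a pair of a cassette exon in 1 strain, with the exon's length on a log axis against the log2 change of the junction ratio from d12 to d17, coloured where the pair was called and grey where it was not. Left of the dotted line, at exons of at most 27 bases, 19 of 20 called pairs lie above 0 for AKR/J, 33 of 34 for C57BL/6J and 33 of 33 for Cav1-null. Those of AKR/J include the pairs of Git1, given in the text with no test there.

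Length in whole codons marked the changing exons as well. Cassette exons of a multiple of 3 bases were called in 32.2% of their pairs for AKR/J, 28.4% for C57BL/6J and 28.9% for Cav1-null, and other cassette exons in 17.6%, 11.4% and 14.1%. Of all 1616 cassette pairs, 50.7% had an exon of a multiple of 3 bases, and 54.3% of the 1330 in coding sequence. Where both flanks of an exon were tested, the flanks moved the same way in 45 of 45 exons called on a flank for AKR/J, 45 of 45 for C57BL/6J and 46 of 47 for Cav1-null, and both flanks were called in 28, 26 and 31 of them. The AKR/J exons include that of Git1, given below with no test there.

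The other kinds of choice changed at different rates. Alternative acceptors were called in 7.44%, 4.04% and 5.82% of their tested pairs in strain order, and alternative donors in 5.75%, 4.24% and 4.61%. Alternative first exons, which follow the choice of a promoter, were called in 21.9%, 24.4% and 16%. Acceptors 3 bases apart, which add or leave out a codon, made up 138 of the 429 acceptor pairs and were called in 1 of 79, 1 of 95 and 0 of 97 pairs. At these sites the nearer acceptor took a median of 54.4% of the reads, and its share varied over the 27 libraries with a median SD of 6.82 percentage points. Both sites ended in AG in 137 of the 138 pairs. Where both were CAG, as in 65 pairs, the median share of the nearer was 50%, and in 25 pairs of TAG before CAG it was 46.8%.

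**Figure D2:**
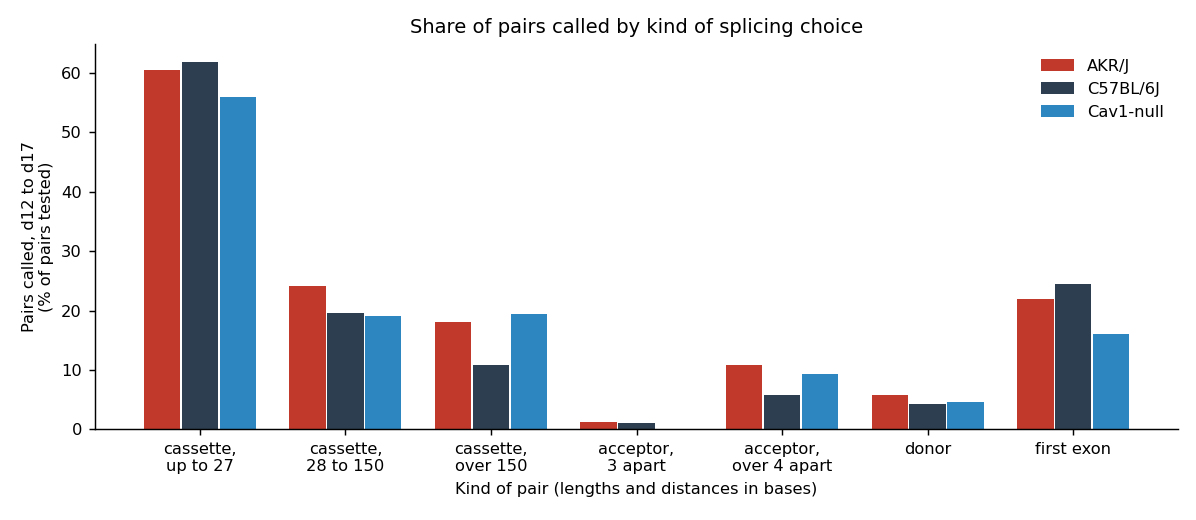
Bars give, for each strain, the percent of tested pairs called between d12 and d17 by kind of splicing choice, from 0. Cassette exons of at most 27 bases lie at 60.6%, 61.8% and 55.9%, and acceptors 3 bases apart at or under 1.27%. The AKR/J bar of these shortest exons includes Git1, given in the text with no test there.

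The 24-base exon of Mef2a, a transcription factor of neurons and muscle, was included in 13.2, 8.51 and 19% of junction reads by the d12 libraries of AKR/J, 58.2, 37.7 and 55.6% on d15 and 80.9, 76.5 and 86% on d17. No d17 library overlapped a d12 library (log2 change 4.88, SE 0.57, adjusted p = 1.4e-04). In C57BL/6J the exon went from 37.7, 52.6 and 20.5% to 76.9, 82.4 and 84% (log2 change 2.90, SE 0.54, adjusted p = 0.00506), again without overlap. The d17 means lay together at 81.1 ± 4.76%, 81.1 ± 3.73% and 82.6 ± 2.73% (SD, n = 3, as below where no n is given) in strain order, while the d12 mean was 13.6 ± 5.28% in AKR/J and 44.9 ± 7.51% in Cav1-null. The difference between the changes of AKR/J and C57BL/6J did not pass the test (adjusted p = 0.497).

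The 21-base exon of Ap1b1, a large subunit of the AP-1 clathrin adaptor, was included in 39.4, 37.5 and 13.3% of reads in the C57BL/6J d12 libraries and in 80, 82.4 and 80.2% on d17 (log2 change 3.27, SE 0.52, adjusted p = 0.00284). In Cav1-null it went from 41.2, 37.7 and 34% to 88.7, 86 and 76.9% (log2 change 3.10, SE 0.48, adjusted p = 0.00113). The AKR/J d12 group had a single usable library at 9.52%, so this pair was not tested there. The 27-base exon of Git1, a GTPase-activating scaffold for Arf proteins, went in AKR/J from 20.6, 26.8 and 27.6% on d12 to 88.9, 93.8 and 83% on d17, with 100, 67.2 and 74.7% on d15, where the highest value rests on a 0 of the longer junction kept as a count. No test is given, since its longer junction met the read rule only with the d12 libraries of AKR/J. In C57BL/6J and Cav1-null the d12 means of Git1 were 58.2 ± 9.14% and 60.9 ± 2.58% and the d17 means 87.6 ± 4.92% and 87.5 ± 7.5%.

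Mars1 encodes the cytosolic methionyl-tRNA synthetase, and its 24-base exon was little used on d12. In Cav1-null it was included in 9.26, 4.71 and 14.4% of reads on d12 and 59.3, 48.5 and 57.7% on d17 (log2 change 3.53, SE 0.55, adjusted p = 0.00115). Here the d15 libraries were spread between both, at 60, 33.3 and 21.2%. The 27-base exon of Tenm3, a teneurin that guides the wiring of neurons, went in C57BL/6J from 28.8, 47.3 and 20% to 86.8, 100 and 86.5% (log2 change 4.09, SE 0.68, adjusted p = 0.00332), and 3 zeros of its less used junction were kept as counts among the 27 libraries. The 30-base exon of Arfgap1, an Arf1 GTPase-activating protein of the Golgi, rose within the late phase of Cav1-null, from 26.6, 21.2 and 34.1% on d15 to 63.9, 60.9 and 60.6% on d17 (log2 change 2.08, SE 0.35, adjusted p = 0.0287), a call that was lost with DESeq2 and limma.

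**Figure D3:**
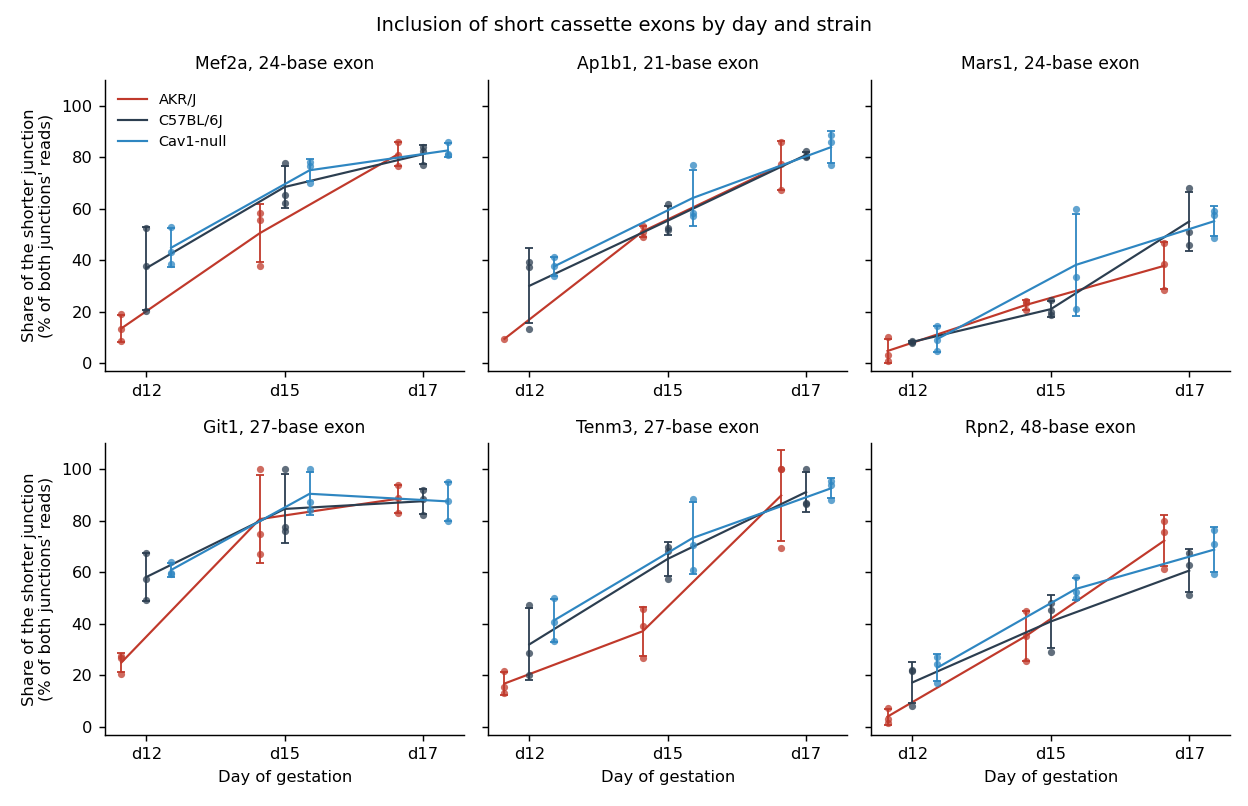
Points are libraries, lines join the means of a strain and bars give the SD, for the inclusion of 6 short cassette exons in percent of the reads of both junctions on d12, d15 and d17. In all 6 exons and all 3 strains, the d17 mean lies above the d12 mean, and Ap1b1 has 1 usable AKR/J library on d12.

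Longer cassette exons rose as steeply in some genes. Rpn2 encodes ribophorin II, a subunit of the oligosaccharyltransferase of the endoplasmic reticulum. Its 48-base exon was included in 1.67, 7.53 and 2.95% of reads by the d12 libraries of AKR/J, 44.8, 25.7 and 35.4% on d15 and 61.2, 79.8 and 75.8% on d17 (log2 change 6.06, SE 0.53, adjusted p = 2.1e-05). Every step separated the libraries. In Cav1-null it went from 24.5, 27.3 and 17.2% to 59.2, 76.3 and 70.9% (log2 change 2.90, SE 0.36, adjusted p = 4.8e-04), and in C57BL/6J the means were 17.3 ± 8.01% and 60.7 ± 8.41%. The 45-base exon of Tbc1d23, which tethers vesicles at the trans-Golgi, rose in AKR/J from 14.3, 20 and 4.17% to 86, 75 and 83% (log2 change 4.88, SE 0.64, adjusted p = 2.2e-04). Its early-phase step, to 57.4, 69.5 and 56.2% on d15 (log2 change 3.42, SE 0.66, adjusted p = 0.0219), was lost with limma. The 75-base exon of Scrib, a scaffold of cell polarity, went in AKR/J from 7.94, 19 and 15.4% to 65.3, 82.2 and 91.2% (log2 change 4.63, SE 0.67, adjusted p = 3.5e-04). The 126-base exon of Atp11b, a phospholipid flippase, rose in AKR/J from 17.1 ± 9.26% to 81.3 ± 5.99% at its downstream flank (log2 change 4.29, SE 0.52, adjusted p = 1.5e-04).

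Some exons among the 88 pairs called in all 3 strains, 58 of them higher, were singled out after their values were seen and stand for no list. Inclusion of the 21-base exon of Dctn1, the largest dynactin subunit, rose with log2 changes of 3.97, 2.25 and 2.53 in strain order. For the 21-base exon of the kinesin Kif21a they were 2.45, 2.76 and 2.47 in strain order, and for the 24-base exon of the kinesin Kif1a 2.0, 1.73 and 1.33 in strain order. The 21-base exon of Clip1, a plus-end tracking protein, gave log2 changes of 2.47, 1.99 and 1.15 in strain order. The 32-base exon of the splicing regulator Rbfox2 rose on both flanks, 1 of which gave log2 changes of 1.89, 2.08 and 1.79 in strain order.

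Genes for adhesion and synaptic receptors were called in 8 of 19 tested pairs for AKR/J, 21 of 48 for C57BL/6J and 15 of 41 for Cav1-null (42.1, 43.8 and 36.6%, beside 18.9%, 15.3% and 16.0% of all pairs), of which 3, 8 and 6 moved to the shorter and 5, 13 and 9 to the longer junction. Over this list, tested pairs had a median log2 change of 0.01, -0.07 and 0.19. Nrcam, a neuronal adhesion molecule of the immunoglobulin superfamily, included its 36-base exon in 14, 28.8 and 5.56% of reads in C57BL/6J on d12 and in 76.4, 59.6 and 76.7% on d17 (log2 change 3.64, SE 0.62, adjusted p = 0.00369). In Cav1-null the same pair went from 10.2, 23.2 and 23.4% on d12 to 50, 69.6 and 61.9% on d15 and 60, 82.1 and 83.6% on d17 (log2 change 3.69, SE 0.56, adjusted p = 0.00103 for d12 to d17). Ptprf, a receptor tyrosine phosphatase at synapses and axons, had exons that moved in opposite directions. Its 306-base exon fell in AKR/J from 89.3, 86.5 and 90.5% on d12 to 31.4, 21.9 and 9.09% on d17 (log2 change -4.79, SE 0.66, adjusted p = 2.6e-04) and in C57BL/6J from 57.9, 74.3 and 81.3% to 16.7, 20.8 and 23.2% (log2 change -3.35, SE 0.48, adjusted p = 0.00225). Its 33-base exon rose in AKR/J from 52.9, 41 and 45.5% on d15 to 79.1, 83.3 and 82.9% on d17 (log2 change 2.34, SE 0.48, adjusted p = 0.0243), which was not called with DESeq2 or limma.

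Exons of other adhesion genes were skipped more on d17. The 84-base exon of Cadm1, a synaptic cell adhesion molecule, was included in 72.5, 74.7 and 87% of reads in AKR/J on d12 and 20.2, 13.9 and 16% on d17 (log2 change -4.00, SE 0.43, adjusted p = 8.3e-05), and its other flank gave 76.9 ± 9.73% and 17.8 ± 4.47%. The 39-base exon of Alcam, a leukocyte and axon adhesion molecule, fell in C57BL/6J from 83.3, 84.4 and 96.7% to 47.7, 39.3 and 37.5% (log2 change -3.57, SE 0.57, adjusted p = 0.00277), and no AKR/J d12 library gave a value. The list holds 57 genes, of which 15, 23 and 21 had a tested pair, in strain order.

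Cytoskeleton and scaffold genes were called in 19 of 31 tested pairs for AKR/J, 15 of 42 for C57BL/6J and 17 of 51 for Cav1-null (61.3, 35.7 and 33.3%, beside 18.9%, 15.3% and 16.0% of all pairs), of which 12, 11 and 13 moved to the shorter and 7, 4 and 4 to the longer junction. Their median log2 change over tested pairs was 0.15, 0.18 and 0.08. Actn4, an actin cross-linking alpha-actinin, gave calls in all 3 strains for its 60-base exon, which was included in 15.5, 22.2 and 16.9% of reads on d12 and 70.1, 70 and 78% on d17 in AKR/J (log2 change 3.56, SE 0.43, adjusted p = 1.5e-04). In Cav1-null the values were 40.2, 37.1 and 38.7% and 80.7, 77.1 and 78.1% (log2 change 2.54, SE 0.33, adjusted p = 5.0e-04), and in C57BL/6J 40.2, 34.3 and 20.1% and 59.7, 76 and 63.5% (log2 change 2.11, SE 0.45, adjusted p = 0.00895). The 190-base exon of Map4, a microtubule-associated protein, fell in Cav1-null from 79.7, 81.7 and 88.7% to 47.8, 47.4 and 54.4% (log2 change -2.32, SE 0.32, adjusted p = 6.3e-04). The 90-base exon of Dtnb, beta-dystrobrevin, fell in C57BL/6J from 82.5, 81.8 and 92.7% to 37.8, 12.8 and 22.4% (log2 change -4.10, SE 0.61, adjusted p = 0.00225).

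Membrane traffic genes were called in 5 of 8 tested pairs for AKR/J, 8 of 15 for C57BL/6J and 6 of 18 for Cav1-null (62.5, 53.3 and 33.3%, beside 18.9%, 15.3% and 16.0% of all pairs), of which 5, 8 and 6 moved to the shorter and 0, 0 and 0 to the longer junction. Over this list, tested pairs had a median log2 change of 2.20, 1.71 and 0.97. Git1 and Ap1b1 above had the largest changes of this list. Its AKR/J calls include Git1 on both flanks of the exon, pairs that share the longer junction and get no test there. Kinase and signalling genes were called in 10 of 17 tested pairs for AKR/J, 12 of 30 for C57BL/6J and 16 of 33 for Cav1-null (58.8, 40 and 48.5%, beside 18.9%, 15.3% and 16.0% of all pairs), of which 8, 8 and 12 moved to the shorter and 2, 4 and 4 to the longer junction. Their median log2 change over tested pairs was 0.69, 0.45 and 0.97. Pkm, described below, had the largest change of this list in AKR/J and Cav1-null. Homer1, a postsynaptic scaffold, included a 36-base exon in 39.5, 60.9 and 48.4% of reads in C57BL/6J on d12 and 100, 100 and 85% on d17, with 6 zeros kept as counts among the 27 libraries, and its longer junction met the read rule only with these d12 libraries, so no test is given. The C57BL/6J count of this list still includes that pair. Ion channel and transporter genes were called in 2 of 4 tested pairs for AKR/J, 1 of 9 for C57BL/6J and 1 of 10 for Cav1-null (50, 11.1 and 10%, beside 18.9%, 15.3% and 16.0% of all pairs), of which 1, 1 and 1 moved to the shorter and 1, 0 and 0 to the longer junction. Their median log2 change over tested pairs was -0.91, -0.35 and -0.08. For Cacna1g, a T-type calcium channel, the shorter junction held 0, 3.16 and 0% in AKR/J on d12 and 10.3, 9.77 and 13.2% on d17. That junction was under 10 reads in all 9 d12 libraries and became a member through the later days, so no test is given. The calls counted for this list still include Cacna1g. Slc4a7, a sodium bicarbonate cotransporter, was called in Cav1-null for a 175-base exon that went from 75.5, 73.2 and 75.8% to 88.7, 88.4 and 91.5% (log2 change 1.51, SE 0.47, adjusted p = 0.0456), against 77.2 ± 9.15% and 77.7 ± 0.643% (n = 2) in C57BL/6J, and this call was lost with DESeq2 and when any 1 library was left out.

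Chromatin and transcription genes were called in 10 of 44 tested pairs for AKR/J, 8 of 52 for C57BL/6J and 6 of 47 for Cav1-null (22.7, 15.4 and 12.8%, beside 18.9%, 15.3% and 16.0% of all pairs), of which 8, 7 and 5 moved to the shorter and 2, 1 and 1 to the longer junction. Over this list, tested pairs had a median log2 change of 0.09, 0.09 and 0.12, and Mef2a above had its largest change in AKR/J and C57BL/6J. Zfp207, a zinc finger protein that binds microtubules of the spindle, had the largest in Cav1-null, where its 93-base exon was included in 37, 42.1 and 48.6% of reads on d12, 57.8, 53.5 and 58.8% on d15 and 84.8, 85.5 and 80.6% on d17 (log2 change 2.79, SE 0.25, adjusted p = 4.6e-05 for d12 to d17). Splicing regulators were called in 15 of 85 tested pairs for AKR/J, 8 of 80 for C57BL/6J and 14 of 86 for Cav1-null (17.6, 10 and 16.3%, beside 18.9%, 15.3% and 16.0% of all pairs), of which 10, 6 and 13 moved to the shorter and 5, 2 and 1 to the longer junction. Their median log2 change over tested pairs was 0.09, 0.16 and 0.19. Hnrnpa2b1 encodes an RNA-binding protein, and 4 member junctions share the splice site of the pair for its 136-base noncoding exon. The values are therefore shares within this pair. The shorter junction held 34.3, 48.4 and 48.2% on d12 and 73.7, 87.7 and 84% on d17 in AKR/J (log2 change 2.56, SE 0.49, adjusted p = 0.00226). In Cav1-null it held 56, 67.9 and 44.4% on d12 and 95, 87.3 and 84.4% on d17 (log2 change 2.60, SE 0.52, adjusted p = 0.00489). C57BL/6J was at 71 ± 8.52% on d12 and 69.4 ± 8.46% on d17, while the difference of its change from those of AKR/J and Cav1-null did not pass the edgeR interaction test (log2 difference 2.67, adjusted p = 0.256, and 2.70, adjusted p over 0.99). Translation and RNA metabolism genes were called in 4 of 19 tested pairs for AKR/J, 2 of 17 for C57BL/6J and 3 of 23 for Cav1-null (21.1, 11.8 and 13%, beside 18.9%, 15.3% and 16.0% of all pairs), of which 2, 1 and 1 moved to the shorter and 2, 1 and 2 to the longer junction. Over this list, tested pairs had a median log2 change of 0.34, -0.11 and 0.02, and Eif4e2 below had its largest change.

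Srrm4, a neuronal regulator of microexons, carries a 16-base exon of its own. Its shorter junction had no read in the 3 C57BL/6J d12 libraries, 0 of 164 reads of the pair, which allows a share of up to 1.83% by a limit of 3 reads for counting error only. On d15 the share was 23.4, 19.3 and 16.7% and on d17 15.4, 56.5 and 30.8%. No d12 library of any strain reached 10 reads of this junction, which became a member through d15 and d17, so the values are a description with no test. In Cav1-null the d12 libraries had 19.4, 24 and 37.5%. These zeros were kept as counts because the junction is little used, and with every 0 treated as missing the pair could not be fitted. The same treatment of zeros applied to Rhot1, a mitochondrial transport GTPase, whose 123-base exon had 0 of 272 reads in C57BL/6J on d12 and a share of 12.5, 17.8 and 11.8% on d15 and 0, 0 and 24.2% on d17. Without the d15 libraries of C57BL/6J this junction misses the read rule, so no test is given. Its other flank was at 13.6 ± 4.33% on d12 and 12.1 ± 1.22% on d15 and was not called. For Zmym4, the junction that skips several exons had 0 of 261 reads in C57BL/6J on d15. It was at 0 in 10 of the 27 libraries, those of C57BL/6J d15 among them, and reached up to 33 reads in the others. The share of the shorter junction was 100% on d15 by these zeros and on d17 it was 65.3, 47.5 and 64.4%, but the junction met the read rule only with these d17 libraries, so no test is given.

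Alternative first exons gave some of the largest falls of the shorter junction. Dnmt3a encodes a de novo DNA methyltransferase, and its pair joins a common acceptor to a nearer or a farther first exon, by the junctions chr12:3941861-3945542 (shorter) and chr12:3923429-3945542 (longer). The share of the nearer first exon in AKR/J was 53.3, 72.6 and 79.2% on d12, 49.3, 39.8 and 50.7% on d15 and 27.8, 14.9 and 9.8% on d17 (log2 change -3.46, SE 0.66, adjusted p = 0.00239 for d12 to d17). It fell in C57BL/6J from 57.6, 47.9 and 71.3% to 9.66, 10.7 and 14.3% (log2 change -3.47, SE 0.45, adjusted p = 0.00205) and in Cav1-null from 52.1, 66.1 and 56.6% to 3.17, 15 and 4.55% (log2 change -4.02, SE 0.51, adjusted p = 5.0e-04). The d12 and d17 libraries did not overlap in any strain. The actin-binding protein Ablim1 went in Cav1-null from 60.5, 75.8 and 48.4% to 25, 20 and 10.1% for its nearer first exon (log2 change -2.88, SE 0.56, adjusted p = 0.00446).

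Pkm, pyruvate kinase of muscle and brain, chooses between exclusive exons of its M1 and M2 forms, and the pair shares the donor before them, with the junctions chr9:59579357-59582311 (shorter) and chr9:59579357-59582850 (longer). The shorter junction enters the exon nearer to that donor, which is the exon of the M1 form. Its share was 12.3, 10.1 and 9.33% in AKR/J on d12, 39.9, 41.2 and 42.4% on d15 and 61.5, 70.4 and 73.3% on d17 (log2 change 4.2, SE 0.27, adjusted p = 8.8e-07). In Cav1-null it was 28.4, 35.7 and 35.4%, 59.2, 63.9 and 55.5% and 77.9, 77.2 and 74.4% on the same days (log2 change 2.71, SE 0.20, adjusted p = 8.6e-06). The replicates lay close together, with 457 to 796 reads of the longer junction in the 3 d12 libraries of AKR/J. In C57BL/6J, d12 replicate 1 had 451 reads of the shorter junction and a 0 for the longer, which was treated as missing. The other libraries there gave 27.5 and 19.4% on d12 and 71.1, 77.7 and 70.2% on d17, with no test.

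Dlg3, a synaptic scaffold of the membrane-associated guanylate kinase family, joins a donor on the X chromosome to a nearer or a farther exon. The nearer exon held 92.6, 82.2 and 65.6% in AKR/J on d12, 32, 28.9 and 34.6% on d15 and 33.9, 21.3 and 16.7% on d17. The early-phase fall was called (log2 change -3.11, SE 0.63, adjusted p = 0.0255), though not with limma. Eif4e2, a cap-binding protein of translational repression, ends in a nearer or a farther last exon. The nearer was used in 91, 82.7 and 90.5% in AKR/J on d12 and 64.9, 56.1 and 63.4% on d17 (log2 change -2.25, SE 0.37, adjusted p = 8.9e-04), in 70.2, 63.5 and 80.1% and 47, 45 and 49.2% in C57BL/6J (log2 change -1.51, SE 0.36, adjusted p = 0.0146), and in 72.3, 73.5 and 83.4% and 48.3, 51.1 and 39.7% in Cav1-null (log2 change -1.95, SE 0.33, adjusted p = 0.00197). The call in C57BL/6J was lost with limma and without d17 replicate 3.

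Fsd1l was the exception among acceptors 3 bases apart, shown above. Its nearer acceptor adds the codon in capitals. The share of the nearer acceptor was 80, 87.5 and 54.3% in AKR/J on d12, 39.3, 39.2 and 49% on d15 and 12, 9.8 and 5.19% on d17 (log2 change -4.95, SE 0.67, adjusted p = 2.3e-04 for d12 to d17, log2 change -2.88, SE 0.42, adjusted p = 0.0031 for d15 to d17). In C57BL/6J it fell from 50.5, 47.6 and 55% to 13.3, 10 and 6.67% (log2 change -3.18, SE 0.44, adjusted p = 0.00225). Cav1-null had values in 2 libraries on d12, 33.6 and 25.8%, and 7.89, 10.8 and 6.25% on d17, and was not tested.

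**Figure D4:**
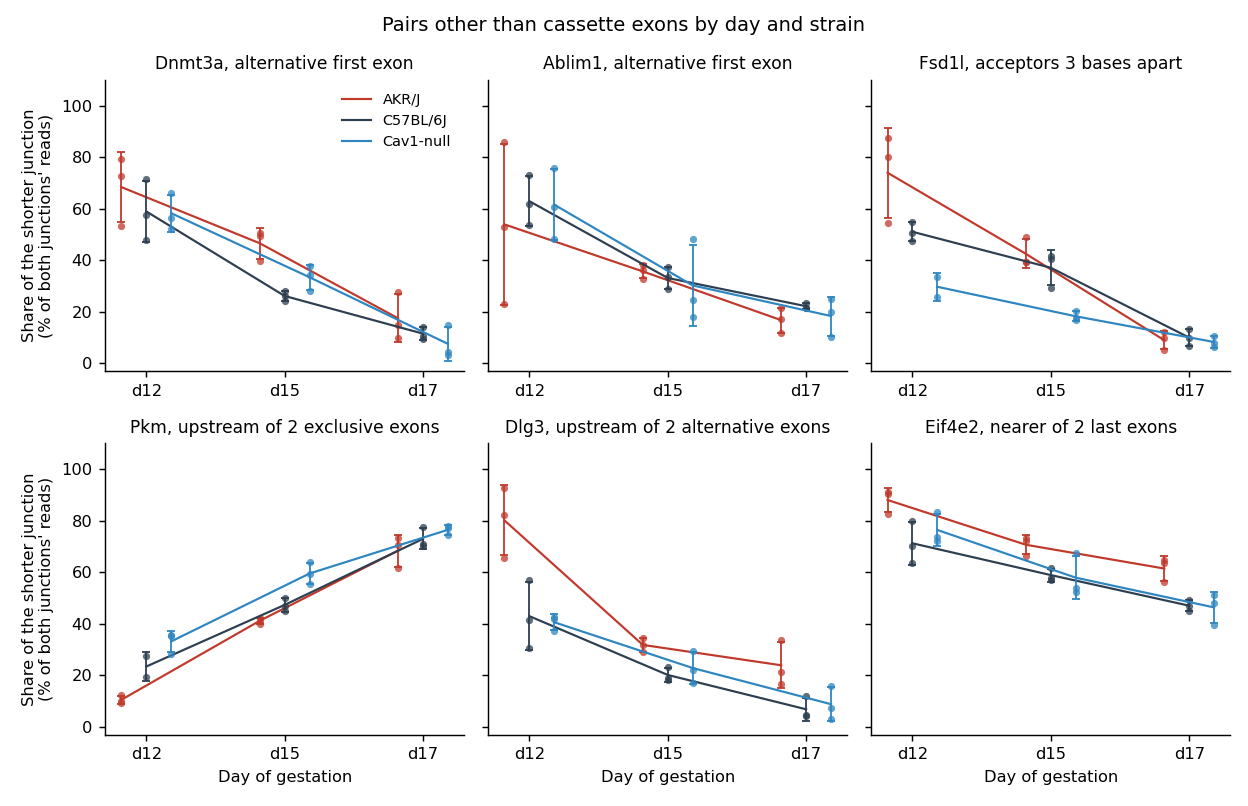
Points are libraries, lines join the means of a strain and bars give the SD, for the share of the shorter junction in 6 pairs that are not cassette exons, on d12, d15 and d17. The mean share of each strain is lower on d17 than on d12 in Dnmt3a, Ablim1, Fsd1l, Dlg3 and Eif4e2 and higher in Pkm, with C57BL/6J d12 of Pkm and Cav1-null d12 of Fsd1l resting on 2 libraries.

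Further pairs were named by the size of their change from d12 to d17. In AKR/J, the 107-base noncoding exon of 4833439L19Rik fell from 90.6 ± 5.22% to 33.6 ± 5.2%. In C57BL/6J, the 162-base exon of the nucleoporin Nup54 went from 3.93 ± 5.25% to 57.2 ± 3.25%, and Plekha5, whose longer junction skips several exons, from 17 ± 9.81% to 74.2 ± 10.4%. For Nup54, 7 zeros of the shorter junction were kept as counts among the 27 libraries, that of C57BL/6J d12 replicate 2 among them. In Cav1-null, the 78-base exon of Nbdy, a small protein that dissolves P-bodies, fell from 81.6 ± 1.67% to 48.2 ± 3.61%. The shorter junction of Nmt2, an N-myristoyltransferase, fell from 83.7 ± 2.31% to 47.1 ± 6.87% there. Adjusted p lay between 2.6e-04 and 0.00295 for these 5 pairs.

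The phases held far fewer calls than the whole period, and their counts were unsteady. In the early phase, d12 to d15, edgeR called 71 of 1455 pairs of AKR/J (4.88%), 52 higher (3.57%) and 19 lower (1.31%). It called 2 of 1958 for C57BL/6J (0.102%), both higher and both, Srrm4 and Rhot1, without a valid test as given above, and 97 of 1978 for Cav1-null (4.9%), 63 higher (3.19%) and 34 lower (1.72%). In the late phase, d15 to d17, it called 35 of 1924 for AKR/J (1.82%), 28 higher (1.46%) and 7 lower (0.364%). For C57BL/6J these were 14 of 1939 (0.722%), 9 higher (0.464%) and 5 lower (0.258%), and for Cav1-null 8 of 1971 (0.406%), all higher. The 14 of C57BL/6J include Cers4 and Zmym4, which are given with no test. In the early phase of AKR/J, 2 pairs were called without d15 replicate 3, the library that stood apart in Xist, 20 without d15 replicate 1, 23 without d12 replicate 1 and 34 without d15 replicate 2. In that of Cav1-null, 14 were called without d15 replicate 2, 23 without d12 replicate 1, 39 without d12 replicate 2, 37 without d15 replicate 3 and 40 without d15 replicate 1. The late count in AKR/J lay at 3 to 16 without any of its libraries other than d15 replicate 1, and that in C57BL/6J at 0 to 6 without any library. In C57BL/6J the early count lay at 0 to 9 with a library left out, and in Cav1-null the late count at 1 to 17. At an unadjusted p under 0.05, 318, 310 and 383 pairs stood out in the early phase and 306, 295 and 234 in the late phase. With every 0 treated as missing, the early counts were 118, 114 and 166 and the late counts 122, 69 and 30 in strain order, and with limma the early counts were 12, 5 and 1, so that the order of the strains depends on the setting. No difference between phases was tested. The shares of the compared libraries did not overlap in 27.7%, 22.7% and 24.7% of the tested pairs in the early phase and in 22.5%, 21.9% and 18.4% in the late phase.

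Of the 120 fits of named phase pairs without a library, 71 lost the call, and Fsd1l and Zfp207 in the late phase and Nmt2 in the early phase kept it in every such fit, although these 3 calls were lost with limma and with every 0 kept as a count. Named phase calls of Tbc1d23, Dlg3, Ptprf and Arfgap1 given above were lost in at least 3 of 6 fits each. In the late phase of C57BL/6J, Nup54 went from 17.4, 15.1 and 23.6% to 60.3, 53.8 and 57.4% (log2 change 2.56, SE 0.40, adjusted p = 0.0323), and the 58-base exon of the ceramide synthase Cers4 from 15.2, 16 and 14% to 52.7, 47.5 and 53.1%. The call of Nup54 was lost whenever a library was left out. Cers4 gets no test, since its shorter junction met the read rule only with these d17 libraries, and in Cav1-null it went the other way, from 47.6 ± 10.4% to 37 ± 8.72%. In the early phase of Cav1-null, the 177-base exon of Arhgef7, an exchange factor for Rac and Cdc42, went from 23.3, 18.5 and 26.7% to 47.6, 59.5 and 72.4% (log2 change 2.30, SE 0.49, adjusted p = 0.0221). On d17 it stood at 18.8, 62.2 and 41.7%, overlapping d12. In that phase the 69-base exon of the RNA-binding protein Tial1 went from 53.2, 58.6 and 73.2% to 43.3, 28.6 and 27.7% (log2 change -1.74, SE 0.45, adjusted p = 0.0465), a call lost with DESeq2 and limma. The d17 mean of Tial1 in Cav1-null was 39.7 ± 11.2%, and AKR/J went from 53.5 ± 19.9% on d12 to 56.4 ± 14.2% on d15. The splice site of this pair is shared by 3 member junctions, so the values are shares within the pair.

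The sequence around the changing exons was examined for motifs of splicing factors. Rbfox proteins are known to bind TGCATG and to favour an exon when bound downstream of it, and Ptbp proteins bind pyrimidine stretches such as TTCTCT. In GRCm39, TGCATG was found within 200 bases downstream of 27.4%, 27.5% and 27.4% of the cassette exons that rose between d12 and d17, in strain order. It followed 3.28%, 3.28% and 4.48% of those that fell and 6.56%, 9.91% and 9.13% of those not called. Of all 1213 cassette exons, 11% held it there on the strand of the gene and 5.94% on the opposite strand. On the opposite strand it was found downstream of 8.85%, 16.7% and 12.1% of rising exons and 3.69%, 4.65% and 5.42% of those not called, so the share of rising exons was above that of exons not called on both strands. The opposite strand was searched as CATGCA, which shares 4 letters with the end of TGCATG. Within 200 bases upstream, TGCATG lay at 15.9%, 16.7% and 11.3% of rising exons and 8.16% of all. TTCTCT lay upstream of 17.7%, 25.8% and 29% of rising exons and 21.4% of all, against 8.82% on the opposite strand. A match is a description of the letters and not of binding, and the 3 sets of exons overlap.

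Strains were compared over the 3 days together, with terms for the day. Between AKR/J and C57BL/6J, 105 of 1060 tested pairs were called (9.91%), 55 with the shorter junction higher in AKR/J (5.19%) and 50 lower (4.72%), and the libraries did not overlap in 2.36%. Between Cav1-null and C57BL/6J, 29 of 1387 were called (2.09%), 22 higher (1.59%) and 7 lower (0.505%) in Cav1-null, with no overlap in 0.216%. Both comparisons use the C57BL/6J libraries. The first count includes calls of Tmem44, Tmem234, Itgb1bp1, Ttc33, Dlg3 and Nprl2, and the second those of Fam204a and Luc7l2. Each is given below with no test, because a junction met the read rule only through the strain or strains where it was more used. Calls of this kind were not counted over all pairs. The counts, their directions and the shares called for age may therefore hold more of them. With the d12 libraries left out, a choice made after seeing the data, 64 of 1608 pairs (3.98%) and 15 of 1611 (0.931%) were called. Of the AKR/J calls, 89 were tested for age in Cav1-null, whose libraries they do not use, and 25 of them (28.1%) were called there between d12 and d17, against 14.3% of the pairs not called between strains. Of the Cav1-null calls, 21 were tested for age in AKR/J and 3 (14.3%) were called there, against 18.5% of the pairs not called. The part of age in the strain calls was not tested. The count for Cav1-null rose to 62 without C57BL/6J d17 replicate 2 and to 46 without C57BL/6J d12 replicate 1, and fell to 15 and 19 without Cav1-null d15 replicates 2 and 1.

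Tmem44, a membrane protein gene on chromosome 16, was without reads of a junction in AKR/J. Its 69-base exon is at chr16:30368211-30368279. The junction into this exon had no read in any of the 9 AKR/J libraries, 0 of 696 reads of the pair, which allows a share of up to 0.431%. In C57BL/6J the share was 12.4, 1.94 and 15.7% on d12, 16.7, 19 and 10.3% on d15 and 9, 11.1 and 13.5% on d17, and 12.1% over all reads. The share was at least 28.1-fold lower in AKR/J by the limit of 3 reads over the group. No AKR/J library reached 10 reads of this junction, which became a member through the other strains, so its values are a description with no test. In Cav1-null it was 32.1, 16.1 and 20.6%, 22.5, 14.3 and 21.9% and 18.2, 29 and 32.3% on the 3 days. The zeros were kept as counts, so that a removed value cannot be told from a true 0, and the pair could not be fitted with every 0 treated as missing.

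Tmem234, another membrane protein gene, showed a like pattern on chromosome 4 for its 92-base exon at chr4:129495663-129495754. The AKR/J libraries held 0.294, 1.44 and 0% on d12, 0, 0 and 0.685% on d15 and 0, 0 and 0.826% on d17. Those of C57BL/6J held 17.3, 22.9 and 8.2%, 10.7, 15.8 and 15.7% and 3.16, 11.5 and 9.82% on the same days, with no overlap on any day. Since no AKR/J library reached 10 reads of the shorter junction, it became a member through the other strains, and these values too are a description with no test. The share in Cav1-null was 10.9 ± 1.84%, 12.8 ± 4.36% and 10.9 ± 6.82%. The longer junction had 106 to 339 reads in the AKR/J libraries. The donor of this pair is shared by 4 member junctions, so that its calls are not independent of those of other Tmem234 pairs.

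Other differences between AKR/J and C57BL/6J were partial and present on every day. The shorter junction of Itgb1bp1, an integrin-binding adaptor, uses a donor 254 bases downstream of its alternative. Its share in AKR/J was 10.9 ± 6.64%, 10.1 ± 2.89% and 8.77 ± 1.67% on d12, d15 and d17, and in C57BL/6J 36.7 ± 9.89%, 25.5 ± 6.3% and 22 ± 1.64%. This junction met the read rule only with the C57BL/6J libraries and gets no test. Nktr, a cyclophilin-related protein, has acceptors 75 bases apart, and the nearer took 83.1 ± 1.83%, 85.1 ± 2.6% and 82.9 ± 3.98% in AKR/J and 75.5 ± 3.74%, 69.9 ± 1.84% and 65.1 ± 3.78% in C57BL/6J (log2 change 1.14, SE 0.18, adjusted p = 1.5e-04). The 82-base exon of Ttc33 was included in 93.4 ± 4.8%, 96.1 ± 2.97% and 94.8 ± 1.71% in AKR/J and 79.7 ± 7.05%, 83 ± 2.16% and 85.4 ± 10.4% in C57BL/6J. Its longer junction was under 10 reads in every AKR/J library and became a member through the other strains, so no test is given. The libraries of these strains did not overlap on any day in these 3 pairs, and Nktr stayed called without the d12 libraries (adjusted p = 6.1e-04).

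Some strain calls were lost without the d12 libraries, though the fitted changes stayed in direction. Bag6, a chaperone of membrane proteins, has a 108-base exon included in 60.5 ± 9.64% in AKR/J on d12 and 38.2 ± 5.22% in C57BL/6J, and in 19.9 ± 2.12% and 13.1 ± 0.434% on d17 (log2 change 0.78, SE 0.19, adjusted p = 0.00847), with a log2 change of 0.47 and an adjusted p of 0.137 without d12. The same held for Dpf1, a neuronal subunit of BAF chromatin remodelling complexes, with alternative first exons (log2 change -0.52, adjusted p = 0.0283 with d12 and -0.45 and 0.145 without). The call of Dpf1 was also lost without any of AKR/J d12 replicate 1, d15 replicate 2 and d17 replicate 3 and C57BL/6J d12 replicate 2 and d15 replicate 3. Eif4e2 above stayed called (adjusted p = 0.0118). Dlg3 gets no test between strains, since its shorter junction met the read rule only with the AKR/J libraries. In both, the mean share of the nearer exon was higher in AKR/J on each day. Nprl2, a subunit of the GATOR1 complex with acceptors 26 bases apart, gets none for the same reason at its longer junction, and the nearer acceptor held 69.1 ± 5.39%, 83.5 ± 0.969% and 80.4 ± 2.55% on the 3 days for AKR/J and 86.8 ± 3.91%, 88.9 ± 3.86% and 91.8 ± 0.959% for C57BL/6J.

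Between Cav1-null and C57BL/6J, the largest change of share was in Fam204a on chromosome 19, where donors 334 bases apart compete. The shorter junction held 61.4, 65.4 and 56.1% in Cav1-null on d12, 62, 50 and 51.9% on d15 and 51, 44.9 and 50.8% on d17. In C57BL/6J it held 89.7, 79.7 and 73.5%, 84.7, 83 and 86.4% and 89.7, 73 and 79.5%, above Cav1-null on every day. Its longer junction met the read rule only with the Cav1-null libraries, so no test is given. AKR/J lay near C57BL/6J at 77.9 ± 3.93%, 81.9 ± 10.3% and 75.4 ± 10.9%. The 71-base exon of Luc7l2, which encodes a factor associated with the U1 small nuclear ribonucleoprotein, was included in 13.1 ± 3.13%, 13.7 ± 4.83% and 19.2 ± 4.31% in Cav1-null and 5.58 ± 3.67%, 4.29 ± 3.93% and 10.4 ± 3% in C57BL/6J. It met the read rule only with the Cav1-null libraries, so no test is given.

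**Figure D5:**
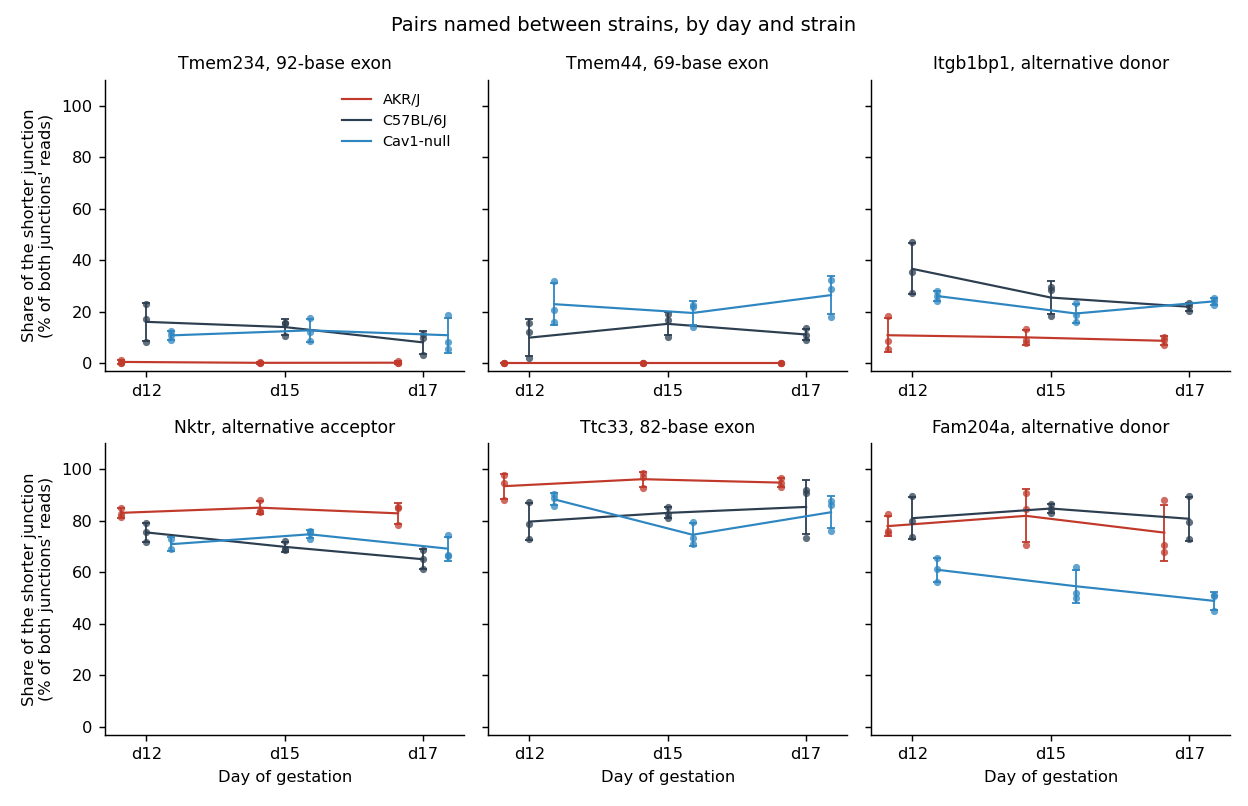
Points are libraries, lines join the means of a strain and bars give the SD, for the share of the shorter junction in 6 pairs, of which Nktr alone is given with a test between strains. AKR/J stays at or below 1.44% in Tmem234 and at 0 in Tmem44 on all days, lies below in Itgb1bp1 and above in Nktr and Ttc33, and Cav1-null lies below the other strains in Fam204a.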

How the data were processed

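Whole fetal brain RNA was sequenced after poly(A) selection with random-hexamer priming, in 27 libraries. The deposited files hold raw read counts per gene and per splice junction, which the authors made by trimming with cutadapt and fastp and aligning with STAR in multi-sample 2-pass mode to GRCm39 with Ensembl 110, without junctions that held multi-mapped reads or overhangs under 20 bases. Reads of every strain were aligned to this reference, and tool versions are not given in the sources used here. Per library, junction counts summed to 2792888 to 4697191 and gene counts to 26363697 to 39759702. Depth limits the share of a pair by counting error, which the replicate spread includes.

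Each junction was taken once by its coordinates (1 row without coordinates was dropped), and 55669 distinct junctions gave 4640 members. The ratio of shorter to longer junction was tested with edgeR 4.0.16 (glmQLFit and glmQLFTest on both counts of a pair, with a term for each library), over 6 libraries for days and 18 for strains, and p-values were adjusted by Benjamini-Hochberg over all tested pairs. R 4.3.3 and Python 3.11.15 were used. The scripts were tested on simulated counts. Alternatives were DESeq2 1.42.0, limma 3.58.1 with a pseudocount of 0.5, other rules for zeros, filters, members and models, a block for the replicate number, and fits without each library. The pairs named were those called, without overlap of the groups and with a mean of at least 50 reads a library, that had the largest rises and falls of the mean share, 5 each for d12 to d17 and for strains and 2 each for a phase, 1 pair a gene, and the called pair with the largest change of each gene list. The members, markers and gene lists were chosen with earlier results of these data known. Sequences came from GRCm39. A result that meets the naming rule is not reported here.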

Additional observations from a re-analysis of the deposited data

How the results depend on the processing

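Calls per setting follow, given in the order AKR/J, C57BL/6J, Cav1-null, where they moved by over 1.5 times. The main counts, and those of named calls, include the pairs given above with no test. For d12 to d17, with 280, 290 and 304 calls, every 0 kept as a count gave 123, 54 and 56, totals of at least 50 reads gave 151 of 791 tested in AKR/J, and 1 model of all 27 libraries gave 154 in C57BL/6J and 135 in Cav1-null, of 918 tested each. Both settings test fewer pairs, and of the 24 and 22 named calls they could fit, 0 were lost. Of 49 named calls for d12 to d17, 18 were lost with every 0 kept as a count, 2 with the replicate block and 1 each with DESeq2 and limma, and none of the named changes turned its direction under any alternative run. For exons of at most 27 bases, with 20, 34 and 33 calls, every 0 kept as a count gave 6 in C57BL/6J and 10 in Cav1-null, totals of at least 50 reads gave 8 in AKR/J and 22 in C57BL/6J, members with 20 or more reads gave 12, 16 and 16, and the 27-library model gave 13 in C57BL/6J and 12 in Cav1-null.

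The phases moved most. Early, with 71, 2 and 97 calls, limma gave 12, 5 and 1, every 0 kept as a count 2, 0 and 0, and every 0 treated as missing 118, 114 and 166. DESeq2 gave 19 in C57BL/6J and 45 in Cav1-null, and the 27-library model 19 and 38. In C57BL/6J, no minimum on the total and 1 pair a splice site gave 0 each, totals of at least 50 reads 14 and members with 20 or more reads 82. Late, with 35, 14 and 8 calls, limma gave 0, 3 and 0, every 0 kept as a count 2, 3 and 0, every 0 treated as missing 122, 69 and 30, and members with 20 or more reads 121, 77 and 37. DESeq2 gave 8 in AKR/J and 2 in Cav1-null, and the 27-library model 13 and 0. Of 20 named phase calls, 14 were lost with limma, 15 with the replicate block, 20 with every 0 kept as a count and 4 each with DESeq2 and no minimum on the total, and of the 7 and 18 that could be fitted, 2 with the 27-library model and 1 with 1 pair a splice site. Where the count was 0, 91 to 367 pairs had an unadjusted p under 0.05.

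Between AKR/J and C57BL/6J, with 105 calls, every 0 kept as a count gave 59, totals of at least 50 reads 69, a change of at least 10 percentage points 52 and leaving out d12, chosen after seeing the data, 64. Between Cav1-null and C57BL/6J, with 29, limma gave 14, every 0 kept as a count 2, every 0 treated as missing 62, the 27-library model 19 and leaving out d12 15. Same-numbered replicates did not correlate above 0.1 in every pair of any comparison, and the main fits did not pair them. This does not exclude a batch or litter shared by a number. Their mean correlation ran from -0.106 to 0.085 over the comparisons, and that of differently numbered replicates from -0.042 to 0.053. With the replicate block, calls were 243, 208 and 222 for d12 to d17, 1, 0 and 16 early, 11, 0 and 1 late, and 19 between Cav1-null and C57BL/6J. The cause of these moves was not tested.

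With each library left out in turn, calls lay at 198 to 285, 168 to 274 and 195 to 314 for d12 to d17, at 2 to 71, 0 to 9 and 14 to 100 early, and at 3 to 26, 0 to 6 and 1 to 17 late. They lay at 70 to 123 between AKR/J and C57BL/6J, at 15 to 62 between Cav1-null and C57BL/6J, and at 19 to 22, 26 to 34 and 21 to 32 for exons of at most 27 bases. Pairs with a missing value or under 20 reads in a fitted library were not tested, and shares of pairs near that total carry wide counting error.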
